A study of Mus musculus with 6 samples.

Results

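The genes for interleukin, interferon and TGF-β receptor chains were examined in splenic CD4+ T cells of mice with 0, 1 or 2 copies of the Ikzf3 N159S allele. Members were the rows whose symbol starts with Il, a number and r, together with Il6st, Ifnar1, Ifnar2, Ifngr1, Ifngr2, Tgfbr1, Tgfbr2 and Crlf2. The rule matched 49 of the 25239 gene rows, and 33 of these had at least 10 reads in at least 2 libraries. These 33 genes also passed the filter on low counts and are described below. The other 16 had too few reads, with a largest count of 20 (Il13ra1) in any library. Among them, 14 stayed under 10 reads in every library (Il1r2, Il23r, Il5ra, Il20ra and Il31ra, for example), and Il11ra2 was listed at 0 throughout. One of the 16, Il1rn, encodes a secreted antagonist and not a receptor. The 49 rows held 0.485 to 0.516% of the reads counted on genes in each library.

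Cytokine receptors are assembled from chains that several cytokines share. The common gamma chain (Il2rg) pairs with private chains to bind IL-2, IL-4, IL-7, IL-9, IL-15 and IL-21, gp130 (Il6st) serves the IL-6 family, and both groups pass their signal through JAK kinases and STAT factors. Receptors of the IL-1 and IL-18 group use MyD88 and IRAK proteins instead. In naive CD4+ T cells IL-7 receptor signals support survival, while IL-2 and IL-15 receptor chains rise with activation, in regulatory T cells and in memory cells. Aiolos, the protein of Ikzf3, and Ikaros are zinc finger factors of 1 family that bind DNA and regulate lymphocyte genes, and N159S is a missense change in the DNA-binding part of Aiolos.

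The libraries came from TCRb+CD4+CD44-CD127+ T cells purified by FACS from the spleen of C57BL/6 mice. The mice were Ikzf3 +/+ (wild type), Ikzf3 +/N159S (heterozygotes) or Ikzf3 N159S/N159S (homozygotes), with 2 libraries for each genotype. The allele was made by CRISPR-Cas9 editing and is carried in the germline, so every other cell of the host carried it as well. No treatment other than the sort is given, and the age and sex of the mice are not given in the sources used here. CD127 is the protein of Il7r, so a member of the family was itself part of the gate. Each library held 11696461 to 17317260 reads on genes, and 14803 to 18147 genes had at least 1 read. Since these are bulk libraries, fewer cells with a transcript and less of it per cell cannot be told apart. The P-values set a difference between genotypes against the spread between the 2 libraries of a genotype. In the main fit this spread was estimated from all genotypes together. With so few libraries, edgeR also drew the spread of each gene towards that of the other genes tested. The P-values therefore rest in part on the spread of other genes.

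The libraries differed in more than the allele. CD4 T cell markers (Cd3d, Cd3e, Cd3g, Cd4 and Cd28) were present at a summed level of 2070 to 2419 CPM. Of these 0 of 5 were called in any comparison, beside at most 3.14% of all genes tested called in 1 direction. Xist, transcribed from the inactive X chromosome, had 12382 and 12801 reads in heterozygotes and 9 to 34 reads in the other libraries. The Y-linked gene Ddx3y had 18 and 17 reads in heterozygotes against 3554 to 4658 elsewhere. The heterozygous genotype therefore cannot be told apart from this sex-linked difference in any comparison below that includes it. The summed level of 9 B cell genes was 166 to 256 CPM in the wild type, 443 to 724 CPM in heterozygotes and 115 to 173 CPM in homozygotes. None of the 9 was at 0 in any library. In heterozygotes against the wild type 5 of 9 were called higher (beside 1.15% of all genes tested). In homozygotes against heterozygotes 9 of 9 were called lower (beside 1.03%). The regulatory T cell list summed to 124 to 125 CPM in the wild type, 171 to 188 CPM in heterozygotes and 127 to 130.3 CPM in homozygotes. In heterozygotes against the wild type Ikzf2 was called higher (1 of 8, beside 1.15%) and Foxp3 was at 1.35 (SE 0.33, FDR = 0.0652). The effector and memory list summed to 107 to 112 CPM in the wild type, 128 to 141 CPM in heterozygotes and 110.3 to 119 CPM in homozygotes. Id2 alone made 71.0 to 88.4 CPM of this. Cxcr3 was called higher (1 of 9, beside 1.15%) in heterozygotes against the wild type. In homozygotes against the wild type 7 of the 9 genes were lower and 2 higher. Their median was -0.521, and 0 were called (beside 2.12% of all genes tested called lower). In homozygotes against heterozygotes 3 of 9 effector and memory genes were called lower, namely Cxcr3 at -2.60 (SE 0.38, FDR = 0.00663), Ccl5 at -2.47 (SE 0.45, FDR = 0.0189) and S100a4 at -2.52 (SE 0.48, FDR = 0.0237), and the median of the 9 was -1.549. In the same comparison 2 of 8 regulatory T cell genes were called lower, Foxp3 at -1.47 (SE 0.32, FDR = 0.0466) and Nrp1 at -0.97 (SE 0.18, FDR = 0.0237), beside 1.03% of all genes tested. CD8 genes (Cd8a and Cd8b1) summed to 17.8 to 21.9 CPM in the wild type, 13.4 to 17.1 CPM in heterozygotes and 3.08 to 4.36 CPM in homozygotes, and Cd8b1 was called lower in homozygotes than in the wild type. Several receptor chains are also expressed by B cells, regulatory T cells or memory cells. Their lists moved in the comparison of homozygotes with heterozygotes, in which 6 receptor genes were called lower. In homozygotes against the wild type, in which 3 receptor genes were called lower, 2 of 9 B cell genes were also called lower. These were Ms4a1 at -1.55 (FDR = 0.00949) and Cd79a at -1.06 (FDR = 0.0318), beside 2.12% of all genes tested. There 0 of 8 regulatory T cell genes were called. The part of such cells in the receptor results was not tested.

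**Figure D1:**
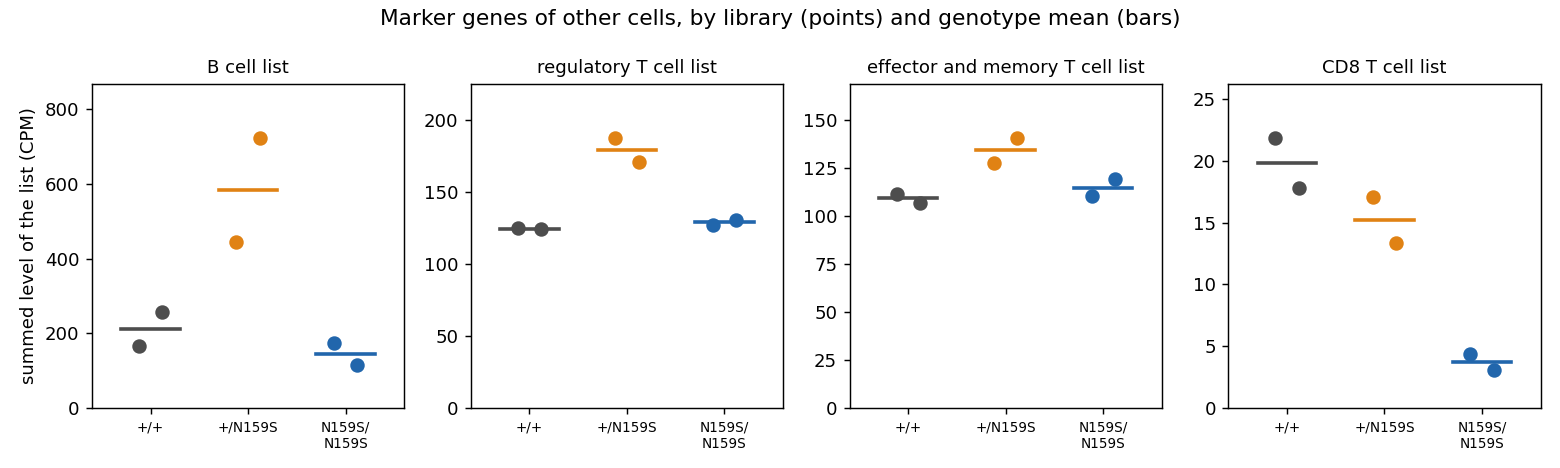
Summed level (CPM, linear axis) of 4 marker lists in each library (points) with the mean of each genotype (bars). The heterozygous libraries were the highest in the B cell, regulatory T cell and effector and memory lists, and the homozygous libraries were the lowest in the CD8 list, at 3.08 and 4.36 CPM.

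Promoter windows of the members show what sequence lies at the start of the genes described below. RefSeq windows (GRCm38.p6, 250 bases before to 50 bases after a start) were matched by symbol for 27 of the 33 genes, giving 34 windows. The letters TGGGAA, which contain the GGGAA core known for Ikaros family zinc fingers, were searched on both strands (TTCCCA where the match is on the other strand). They occurred in 10 of the 34 windows (29.4%), beside 25.6% of all 32851 windows in the table and 23% of the windows of the genes tested. Among the 10 genes called in at least 1 comparison, 7 had windows, and 5 of their 10 windows held the letters. Several of those windows belong to 1 gene or overlap, so they are not independent. Il2rb, Il10ra and Il12rb1 were not matched. The windows of Ifngr2, Il7r, Il2ra and Il9r did not hold these letters. A match is a run of letters and not a measured binding site. The following 4 windows belong to genes that were called higher in a carrier genotype than in the wild type and hold a match, shown in capitals, 5′ to 3′ on the strand of the gene.
Il18r1, chr1:40465302-40465601 (+ strand): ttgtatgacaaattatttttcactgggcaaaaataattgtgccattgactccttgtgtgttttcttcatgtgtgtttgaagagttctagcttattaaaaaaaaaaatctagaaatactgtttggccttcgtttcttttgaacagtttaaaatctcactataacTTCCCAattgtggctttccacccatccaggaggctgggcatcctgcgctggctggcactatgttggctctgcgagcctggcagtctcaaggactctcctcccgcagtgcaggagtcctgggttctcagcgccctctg
Il18r1, chr1:40465756-40466055 (+ strand): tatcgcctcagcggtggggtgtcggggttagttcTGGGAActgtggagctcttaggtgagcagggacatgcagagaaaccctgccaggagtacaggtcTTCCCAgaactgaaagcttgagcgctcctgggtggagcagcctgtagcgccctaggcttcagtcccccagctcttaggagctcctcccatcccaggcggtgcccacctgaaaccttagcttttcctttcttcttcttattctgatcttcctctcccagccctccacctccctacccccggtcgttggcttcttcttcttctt
Crlf2, chr5:109558944-109559243 (- strand): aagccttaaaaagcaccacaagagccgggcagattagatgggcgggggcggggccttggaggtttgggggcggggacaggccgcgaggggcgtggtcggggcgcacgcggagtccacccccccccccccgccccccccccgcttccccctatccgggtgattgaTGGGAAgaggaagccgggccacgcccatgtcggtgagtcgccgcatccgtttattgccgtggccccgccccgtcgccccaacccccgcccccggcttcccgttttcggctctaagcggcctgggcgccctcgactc
Il1rl1, chr1:40439379-40439678 (+ strand): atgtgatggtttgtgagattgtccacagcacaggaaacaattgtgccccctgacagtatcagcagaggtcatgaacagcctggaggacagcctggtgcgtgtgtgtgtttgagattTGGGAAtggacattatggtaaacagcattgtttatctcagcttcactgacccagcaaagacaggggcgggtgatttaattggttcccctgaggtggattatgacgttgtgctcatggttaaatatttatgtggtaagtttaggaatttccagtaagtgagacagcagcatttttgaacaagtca
The upper Il18r1 window holds 1 match on the other strand, the lower Il18r1 window holds 1 on each strand, and the Crlf2 and Il1rl1 windows hold 1 each on the strand of the gene.

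Levels per length spanned from 380 to 0.011 RPKM in the wild type. Il2rg (380 RPKM, mean of 2 libraries) and Il7r (354 RPKM) were the highest, followed by Il27ra (120), Il21r (94.2) and Il4ra (73.2 RPKM). Il2rg was above Il7r in both of these libraries, at 371 to 389 against 344 to 364 RPKM. By reads Il7r was the higher, at 15004 and 18087 against 7567 and 9204 in the wild type. The lengths came from GENCODE M21 and the counts from refGene, so the order of these 2 genes depends on the lengths used. Tgfbr2 (64.7), Ifngr1 (62.5) and Ifnar1 (56.9 RPKM) came next. The private chains of the IL-2 receptor were far lower, with Il2rb at 6.72 and Il2ra at 1.77 RPKM. Il18rap (0.346), Il9r (0.342), Il1rl1 (0.151) and Il1r1 (0.011 RPKM) were at the bottom of the order. In the plot of levels, the genes with high levels sat close together in the 3 genotypes, and the wide gaps between genotypes were among the genes of low level.

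**Figure D2:**
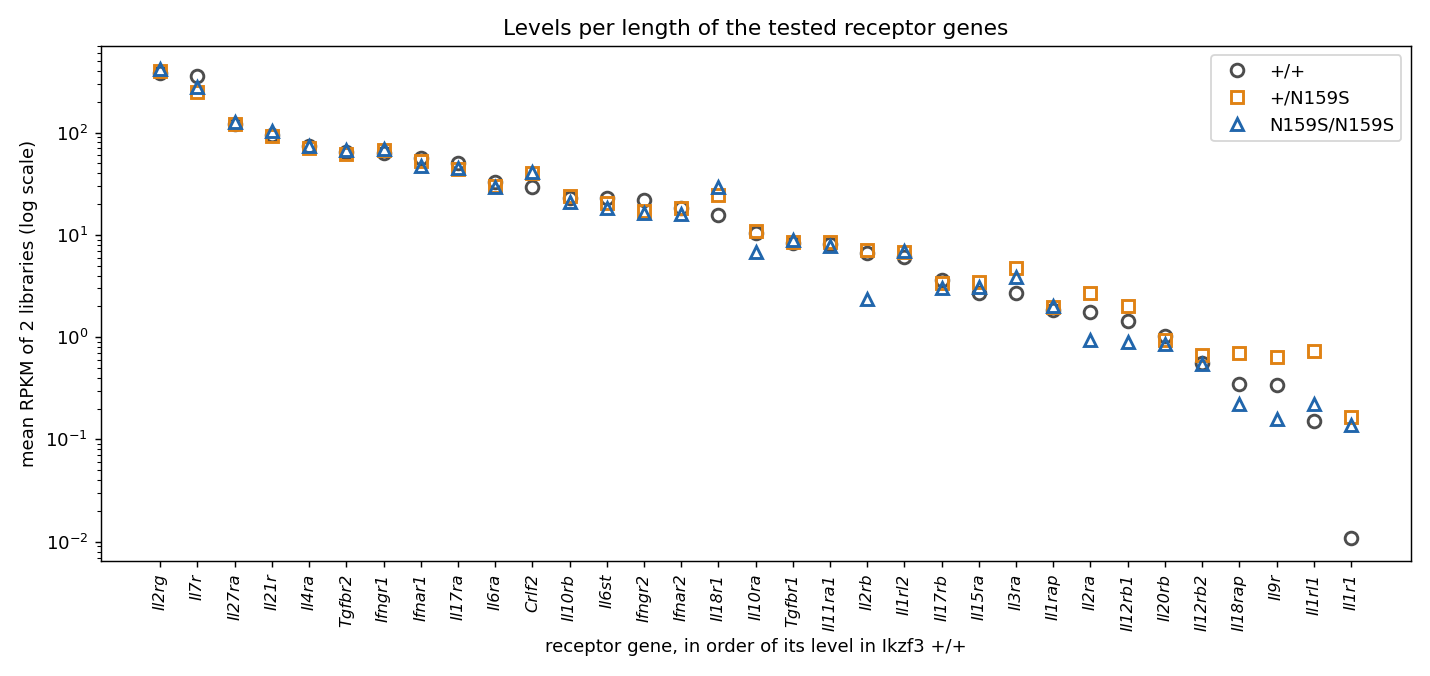
Mean RPKM of 2 libraries (log axis) of the 33 tested receptor genes in each genotype, ordered by the level in the wild type. Il2rg at 380 and Il7r at 354 RPKM were at the top, and the symbols of the 3 genotypes spread apart for Il2rb, Il2ra, Il9r and Il1rl1.

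Each genotype pair was compared by edgeR's quasi-likelihood test in 1 fit of the 6 libraries, and a gene was called at a Benjamini-Hochberg FDR under 0.05 over the 12117 genes tested. Of the 33 receptor genes, 5 were called in homozygotes against the wild type. Il18r1 and Crlf2 were higher (6.06% of the 33, beside 3.14% of all genes tested), and Il2rb, Il10ra and Ifngr2 were lower (9.09%, beside 2.12%). In heterozygotes against the wild type, 3 were called: Il18r1 and Il1rl1 were higher (6.06%, beside 1.15%) and Il7r was lower (3.03%, beside 0.602%). In homozygotes against heterozygotes, Il2rb, Il2ra, Il10ra, Il1rl1, Il9r and Il12rb1 were lower (18.2%, beside 1.03%) and 0 were higher (beside 0.627%). In the same edgeR fit 8 of the 33 had an unadjusted p under 0.05 in that comparison, beside 1450 of the 12117 genes tested. DESeq2 likewise called 0 higher and 4 lower.

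Heterozygotes were also set against the mean of the wild-type and homozygous log2 levels, their midpoint. They were higher than the midpoint for Il1rl1, Il2ra and Il2rb (9.09%, beside 0.825%) and lower for 0 (beside 0.206%, with 1 called lower by DESeq2). In the edgeR fit 11 of the 33 had an unadjusted p under 0.05 in either direction, beside 1394 of the 12117 genes tested. In all, 10 of the 33 were called in at least 1 comparison and 1, Il18r1, in both carrier genotypes against the wild type. The same counts were not made over all genes tested, so neither can be set against a background. The comparisons share libraries, and their calls are not independent of each other. The median log2 fold change of the 33 genes was -0.059 in homozygotes and 0.069 in heterozygotes against the wild type, beside 0 and 0.011 over all genes tested. In the plot of fold changes most intervals cross or lie near 0, and the called genes are spread over several receptor families.

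**Figure D3:**
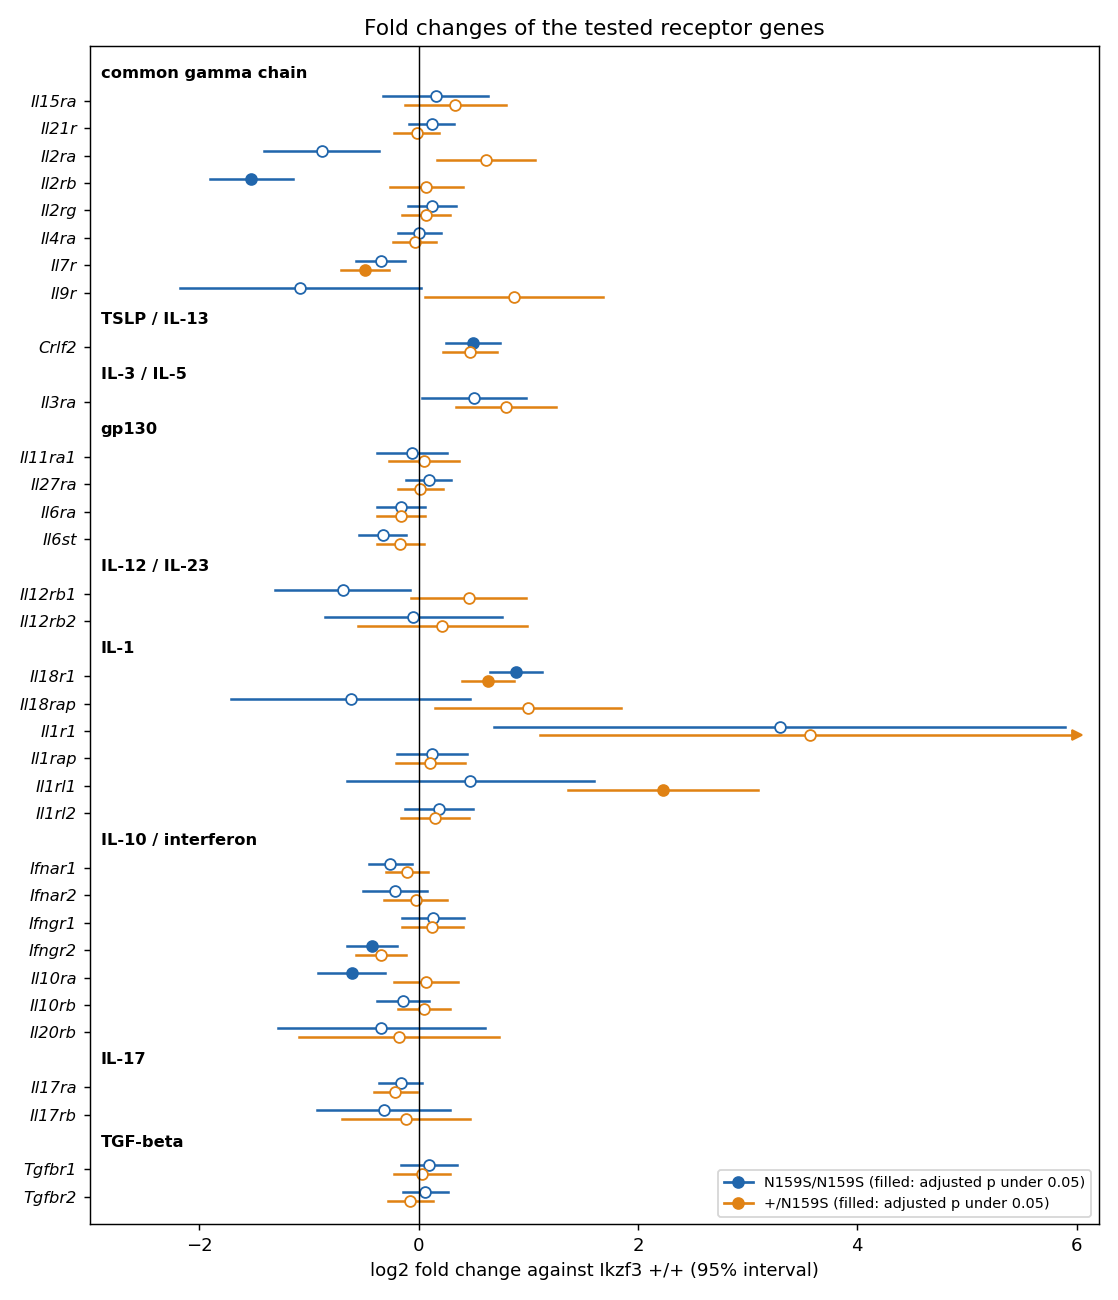
Log2 fold change (points) with its 95% interval (lines) of the 33 tested receptor genes against the wild type, by receptor family, for homozygotes (blue) and heterozygotes (orange). Filled points passed an FDR of 0.05, an arrow marks an interval that runs past the axis, and the fitted value of Il1r1 depends on the prior count because 1 wild-type library had 0 reads. Il2rb at -1.53 and Il18r1 at 0.89 were called in homozygotes.

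Il2rb encodes the beta chain shared by the receptors for IL-2 and IL-15, and lies on chromosome 15 from 78479256 to 78495271 of mm10. Its normalized counts, scaled to the mean library size, were 363 and 501 in the wild type, 458 and 454 in heterozygotes and 156 and 145 in homozygotes. Both homozygous libraries lay below the other 4, which overlapped. The log2 fold change was -1.53 (SE 0.17, FDR = 0.000436) against the wild type, a 2.88-fold lower level, and -1.60 (SE 0.17, FDR = 0.000866) against heterozygotes. Between heterozygotes and the wild type it was 0.07 (SE 0.15, FDR = 0.864), with an interval of -0.27 to 0.40. The heterozygous level was above the midpoint by 0.83 (SE 0.14, FDR = 0.016), and this call was lost without heterozygous replicate 1 (FDR = 0.0544). The calls against the wild type and against heterozygotes held in each of the 15 alternatives. Il2rb is also known from CD8 T and NK cells. Cd8b1, a defining CD8 gene, had 234 and 196 reads in the wild type, 210 and 136 in heterozygotes and 54 and 28 in homozygotes. Cd8a had 21 and 69, 79 and 72, and 21 and 14 reads in the same order. Against the wild type Cd8a was at -1.56 (FDR = 0.0889) in homozygotes and 0.47 (FDR = 0.55) in heterozygotes, and was not called. In heterozygotes Cd8b1 was at -0.63 (FDR = 0.221) against the wild type. In homozygotes against heterozygotes both CD8 genes were called lower, beside 1.03% of all genes tested. Cd8a was at -2.03 (SE 0.42, FDR = 0.0362) and Cd8b1 at -2.00 (SE 0.32, FDR = 0.0102). A list of 6 NK cell genes summed to 25.2 to 39 CPM in the wild type, 24.8 to 31.7 CPM in heterozygotes and 29.1 to 30.8 CPM in homozygotes. Prf1 alone made 21.4 to 36.7 CPM of this, and the defining NK gene Ncr1 was at 0 in 3 libraries. Of 3 NK genes tested, Gzma was called higher in homozygotes than in the wild type, at 2.64 (FDR = 0.0433), beside 3.14% of all genes tested. Prf1 and Klrk1 were not called. After scaling, the CD8 genes, like Il2rb, were lowest in homozygotes. The part of CD8 T or NK cells in the Il2rb values was not tested.

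Il2ra, which encodes CD25, the high-affinity alpha chain of the IL-2 receptor, had a different order of genotypes. Its normalized counts were 132 and 143 in the wild type, 232 and 189.9 in heterozygotes and 88.8 and 58.1 in homozygotes. No library of a genotype overlapped with one of another, with heterozygotes the highest and homozygotes the lowest. It was lower in homozygotes than in heterozygotes by -1.50 (SE 0.22, FDR = 0.00663), which was lost without homozygous replicate 2 (FDR = 0.0548), and above the midpoint by 1.06 (SE 0.18, FDR = 0.0179), which was lost without heterozygous replicate 1 (FDR = 0.11). Against the wild type it did not pass the threshold in either carrier genotype, at -0.88 (SE 0.24, FDR = 0.0585) in homozygotes and 0.61 (SE 0.20, FDR = 0.162) in heterozygotes. The first of these passed in 8 of the 15 alternatives, among them DESeq2 (adjusted p = 0.039) and the fits without heterozygous replicate 2 (FDR = 0.039) or homozygous replicate 1 (FDR = 0.0445). Foxp3, which defines regulatory T cells, had 80 and 167 reads in the wild type, 511 and 259 in heterozygotes and 187 and 78 in homozygotes. The regulatory T cell list, like Il2ra, was highest in heterozygotes, and its part in the Il2ra values was not tested.

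Il2rg, the X-linked common chain on chromosome X from 101264378 to 101268255, had normalized counts of 9728 and 9269 in the wild type, 10548 and 9389.6 in heterozygotes and 10496 and 10228 in homozygotes. Both homozygous libraries were above both wild-type libraries, and the heterozygous libraries overlapped with each. Its log2 fold change was 0.13 (SE 0.10, FDR = 0.573) with an interval of -0.09 to 0.34 in homozygotes. In heterozygotes it was 0.07 (SE 0.10, FDR = 0.776) with an interval of -0.15 to 0.29, and its sign changed without heterozygous replicate 1 (-0.02). In GENCODE M21 43.6% of its exon bases are shared with Gm20489 on the same strand. The reads were counted on another annotation, refGene, and whether this overlap touched the counts is not known.

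Il7r encodes CD127, the alpha chain for IL-7 and, with Crlf2, for TSLP. Its normalized counts were 19289 and 18215 in the wild type, 13255 and 13455 in heterozygotes and 14151 and 15374 in homozygotes. Each carrier library lay below both wild-type libraries. It was lower in heterozygotes than in the wild type by -0.49 (SE 0.10, FDR = 0.0368), and in homozygotes it was at -0.35 (SE 0.10, FDR = 0.0799), which did not pass. The difference between the carrier genotypes was 0.14 (SE 0.10, FDR = 0.626). The call in heterozygotes was lost without wild-type replicate 1 (FDR = 0.171), wild-type replicate 2 (FDR = 0.132), heterozygous replicate 1 (FDR = 0.105), heterozygous replicate 2 (FDR = 0.0997) or homozygous replicate 2 (FDR = 0.0511). It was also lost in a fit of only these 2 genotypes (FDR = 0.0605). Because CD127 protein was gated in the sort, the transcript level was measured in cells chosen for its product.

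Il9r, the private chain for IL-9, was read at low counts. The reads were 14 and 28 in the wild type, 48 and 46 in heterozygotes and 16 and 7 in homozygotes. The heterozygous libraries were above the other 4. It was lower in homozygotes than in heterozygotes by -1.95 (SE 0.42, FDR = 0.0429), a call that each of the 6 omissions of a library ended, with FDR values of 0.0587 without wild-type replicate 1, 0.0613 without wild-type replicate 2, 0.116 without heterozygous replicate 1, 0.129 without heterozygous replicate 2, 0.113 without homozygous replicate 1 and 0.271 without homozygous replicate 2. It was also lost with DESeq2 (adjusted p = 0.0503), in a fit of only these 2 genotypes (FDR = 0.0591) and with edgeR's earlier quasi-likelihood test (FDR = 0.0637). Il9r was at -1.08 (SE 0.50, FDR = 0.281) in homozygotes and 0.87 (SE 0.37, FDR = 0.271) in heterozygotes against the wild type.

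The other common gamma chain partners were not called in any comparison. Il4ra, the IL-4 receptor alpha chain, had normalized counts of 5902 and 5611 in the wild type, 5591 and 5633 in heterozygotes and 5846 and 5713 in homozygotes. Il21r, which binds IL-21, had 3472 and 3699 in the wild type, 3482 and 3597 in heterozygotes and 4063 and 3737 in homozygotes. The intervals of their log2 fold changes in homozygotes against the wild type were -0.19 to 0.20 and -0.08 to 0.33, so differences beyond these bounds were not seen. Il15ra, the alpha chain for IL-15, was at 0.15 (SE 0.22, FDR = 0.781) in homozygotes and 0.34 (SE 0.21, FDR = 0.47) in heterozygotes. Its intervals were wide, at -0.32 to 0.63 in homozygotes and -0.13 to 0.80 in heterozygotes. Of the 8 chains of this family, Il2rb was called lower in homozygotes (beside 2.12% of all genes tested) and Il7r in heterozygotes (beside 0.602%) against the wild type. In either, 0 were called higher (beside 3.14% and 1.15%), with Il3ra and Crlf2 counted in other families.

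**Figure D4:**
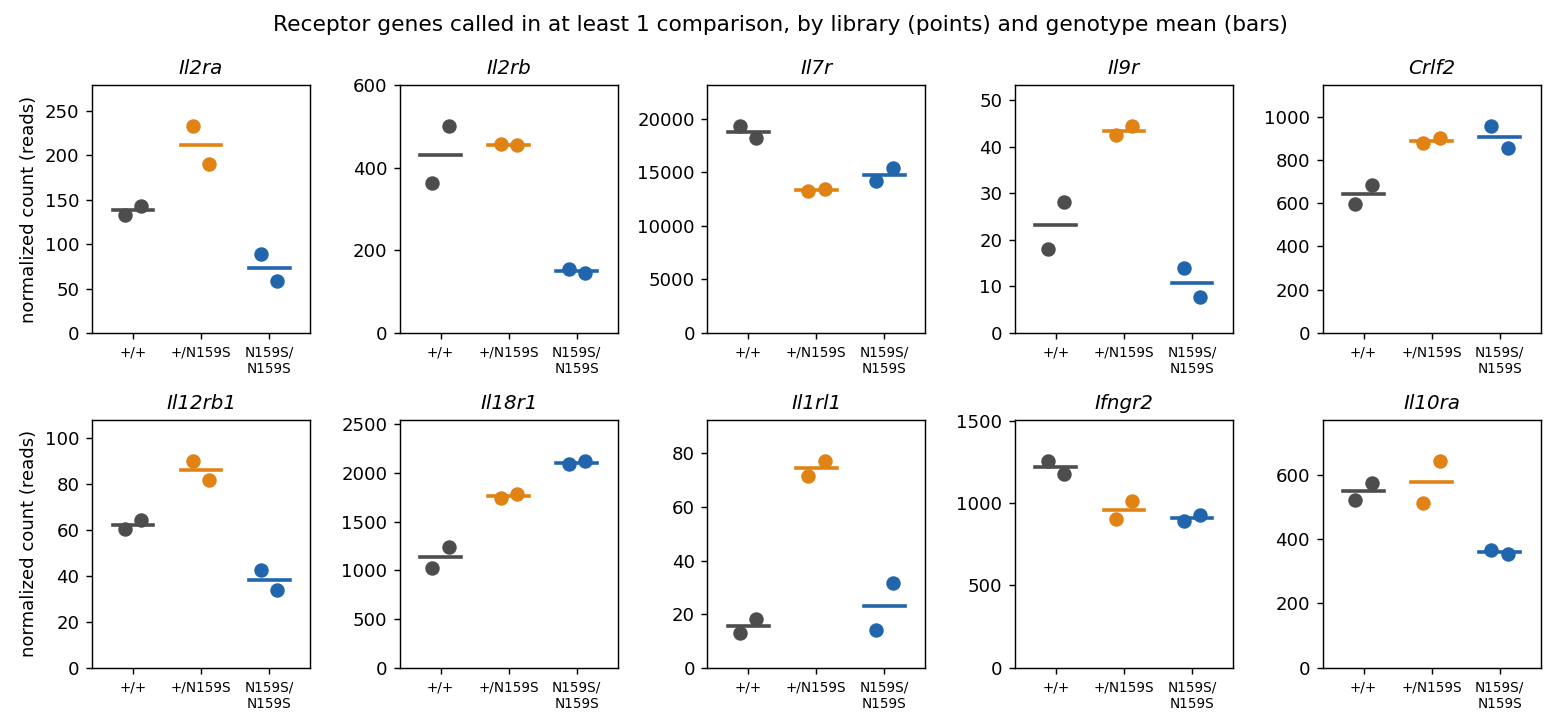
Normalized count (reads scaled to the mean library size, linear axes from 0) of the 10 receptor genes called in at least 1 comparison, in each library (points) with the genotype mean (bars). Il2rb and Il10ra were lowest in both homozygous libraries, Il18r1 was higher in each carrier library than in either wild-type library, and Il1rl1 and Il9r were highest in heterozygotes.

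Il18r1, the ligand-binding chain of the IL-18 receptor on chromosome 1 from 40465552 to 40500854, rose in both carrier genotypes. Its normalized counts were 1025 and 1243 in the wild type, 1743 and 1784 in heterozygotes and 2089 and 2124 in homozygotes. All 4 carrier libraries were above both wild-type libraries, and the genotypes did not overlap. The log2 fold change was 0.89 (SE 0.11, FDR = 0.000659) in homozygotes and 0.63 (SE 0.11, FDR = 0.0169) in heterozygotes, or 1.85-fold and 1.55-fold. The carrier genotypes differed by 0.26 (SE 0.11, FDR = 0.346), with an interval of 0.03 to 0.49, and the heterozygous level was not separable from the midpoint at 0.19 (SE 0.09, FDR = 0.457). The call in homozygotes held in each of the 15 alternatives, and that in heterozygotes was lost without wild-type replicate 1 (FDR = 0.119). As shown above, 2 of the Il18r1 windows overlap and share a TTCCCA, and the downstream window holds TGGGAA and TTCCCA.

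Il18rap, the accessory chain that IL-18 signaling needs beside Il18r1, was read at low counts and was not called. It had 19 and 26 in the wild type, 41 and 69 in heterozygotes and 20 and 14 in homozygotes as reads, and the heterozygous libraries were the highest. The log2 fold change against the wild type was -0.62 (SE 0.50, FDR = 0.576) in homozygotes and 0.998 (SE 0.39, FDR = 0.229) in heterozygotes, and the difference between the fold changes of Il18rap and Il18r1 was not tested. Between the carrier genotypes it was -1.62 (SE 0.41, FDR = 0.0848), which passed without heterozygous replicate 1 (FDR = 0.033). In the wild type Il18r1 was at 15.7 and Il18rap at 0.346 RPKM.

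Il1rl1 encodes ST2, the receptor for IL-33, known from regulatory T cells, Th2 cells and innate lymphoid cells. It had 10 and 18 in the wild type, 81 and 80 in heterozygotes and 16 and 29 in homozygotes as reads. The heterozygous libraries were above the other 4, which overlapped between the wild type and homozygotes. It was higher in heterozygotes than in the wild type by 2.22 (SE 0.40, FDR = 0.0199), and lower in homozygotes than in heterozygotes by -1.75 (SE 0.35, FDR = 0.0311). The heterozygous level was above the midpoint by 1.99 (SE 0.31, FDR = 0.0116), a call that held in each of the 14 alternatives. The call against the wild type was lost without wild-type replicate 1 (FDR = 0.111) or wild-type replicate 2 (FDR = 0.118), and that between the carrier genotypes without heterozygous replicate 1 (FDR = 0.0712), heterozygous replicate 2 (FDR = 0.087) or homozygous replicate 1 (FDR = 0.257). The latter was also lost with edgeR's earlier quasi-likelihood test (FDR = 0.0682). In homozygotes against the wild type it was 0.47 (SE 0.51, FDR = 0.701). The regulatory T cell and B cell marker lists were highest in the same libraries, and their part in the Il1rl1 values was not tested.

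Il1r1, the signaling receptor for IL-1, was near the floor of detection, with 0 and 2 in the wild type, 9 and 23 in heterozygotes and 9 and 16 in homozygotes as reads. The carrier libraries were above both wild-type libraries, but the FDR was 0.155 in homozygotes and 0.141 in heterozygotes, and no fold is given because the wild-type libraries held 0 and 2 reads. Il1rap, the accessory chain for IL-1 and IL-33, had a log2 fold change of 0.12 (SE 0.14, FDR = 0.725) in homozygotes. Il1rl2, the receptor for IL-36, had 0.18 (SE 0.14, FDR = 0.561).

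The IL-1 receptor genes Il1r2, Il1r1, Il1rl2, Il1rl1, Il18r1 and Il18rap stand side by side on chromosome 1 of mm10 within 477627 bases (40074079 to 40551705), in this order and on 1 strand. Il1rl1 ends 136 bases before Il18r1 starts. Along the cluster the fold changes were uneven: Il18r1 was called higher in both carrier genotypes, its neighbor Il1rl1 in heterozygotes, and Il1rl2 in neither. A second cluster on chromosome 16 (91372783 to 91565623, 192841 bases) holds Ifnar2, Il10rb, Ifnar1 and Ifngr2. In homozygotes its 4 genes had log2 fold changes from -0.42 (Ifngr2) to -0.14 (Il10rb), of which Ifngr2 was called. In GENCODE M21 Il10rb and Ifnar2 share 30.8% and 9.92% of their exon bases with Gm21970 on the same strand. Whether this overlap touched the refGene counts is not known.

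**Figure D5:**
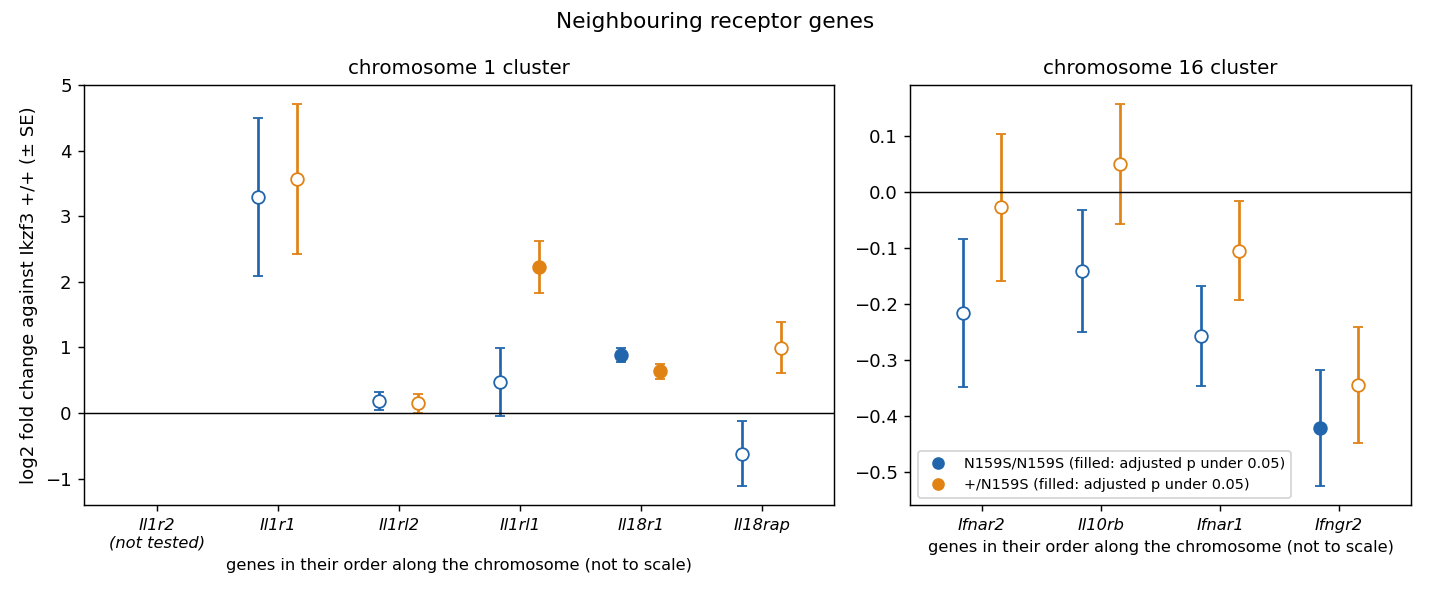
Log2 fold change ± SE against the wild type of the receptor genes in the clusters on chromosomes 1 and 16, in gene order, for homozygotes (blue) and heterozygotes (orange). Filled points passed an FDR of 0.05, Il1r2 was not tested, the panels have different vertical scales, and the wide bars of Il1r1 belong to a gene with 0 and 2 reads in the wild-type libraries.

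Il10ra, the ligand-binding chain for IL-10, lies on chromosome 9 from 45253837 to 45269149. Its normalized counts were 522 and 575 in the wild type, 512 and 643 in heterozygotes and 365 and 354 in homozygotes. Both homozygous libraries were below the other 4, which overlapped. It was lower in homozygotes than in the wild type by -0.61 (SE 0.14, FDR = 0.0273) and than in heterozygotes by -0.68 (SE 0.14, FDR = 0.0311), or 1.53-fold and 1.6-fold. In heterozygotes against the wild type it was 0.07 (SE 0.13, FDR = 0.84). The call against the wild type was lost without wild-type replicate 1 (FDR = 0.0695), wild-type replicate 2 (FDR = 0.202), homozygous replicate 1 (FDR = 0.103) or homozygous replicate 2 (FDR = 0.124). That against heterozygotes was lost without heterozygous replicate 2 (FDR = 0.161), homozygous replicate 1 (FDR = 0.108) or homozygous replicate 2 (FDR = 0.171). Il10rb, the second IL-10 receptor chain, was at -0.14 (SE 0.11, FDR = 0.559) in homozygotes.

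Ifngr2, the signaling chain of the interferon-gamma receptor, lies on chromosome 16 from 91547072 to 91565623. Its normalized counts were 1255 and 1178 in the wild type, 904 and 1011 in heterozygotes and 891 and 924 in homozygotes, and each carrier library was below both wild-type libraries. It was lower in homozygotes by -0.42 (SE 0.10, FDR = 0.0388), a call lost without wild-type replicate 1 (FDR = 0.225), wild-type replicate 2 (FDR = 0.136), homozygous replicate 1 (FDR = 0.212) or homozygous replicate 2 (FDR = 0.14), and was at -0.34 (SE 0.10, FDR = 0.126) in heterozygotes. Ifngr1, the ligand-binding chain, was at 0.13 (SE 0.13, FDR = 0.67) in homozygotes. Ifnar1, a chain of the type I interferon receptor, had normalized counts of 3265 and 3395 in the wild type, 3081 and 3114 in heterozygotes and 2818 and 2755 in homozygotes. The homozygous libraries of Ifnar1 were the lowest, with a log2 fold change of -0.26 (SE 0.09, FDR = 0.139), and Ifnar2, its partner, was at -0.22 (SE 0.13, FDR = 0.437). Of the 7 genes tested in this family, 2 were called lower (beside 2.12% of all genes tested) and 0 higher (beside 3.14%) in homozygotes against the wild type.

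Crlf2, the receptor chain that binds TSLP together with the Il7r product, lies on chromosome 5 from 109554709 to 109558993. Its normalized counts were 598 and 683 in the wild type, 877 and 900.4 in heterozygotes and 956 and 853 in homozygotes. All 4 carrier libraries were above both wild-type libraries. It was higher in homozygotes by 0.50 (SE 0.11, FDR = 0.0278), a call lost without wild-type replicate 1 (FDR = 0.215), wild-type replicate 2 (FDR = 0.0744) or homozygous replicate 1 (FDR = 0.205), and was at 0.47 (SE 0.11, FDR = 0.0652) in heterozygotes. The carrier genotypes differed by 0.03 (SE 0.11, FDR = 0.956), with an interval of -0.21 to 0.27. The chains of the TSLP receptor were called in opposite directions, Crlf2 higher in homozygotes and Il7r lower in heterozygotes. Each had the same sign in both carrier genotypes, with Il7r at -0.35 in homozygotes and -0.49 in heterozygotes. Neither was called between the carrier genotypes (FDR = 0.626 for Il7r), so the calls do not set these genotypes apart.

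Il12rb1, the chain shared by the IL-12 and IL-23 receptors, had 47 and 64 in the wild type, 102 and 85 in heterozygotes and 49 and 31 in homozygotes as reads. After scaling, both heterozygous libraries were the highest and both homozygous libraries the lowest. It was lower in homozygotes than in heterozygotes by -1.15 (SE 0.25, FDR = 0.0496). Each of the 6 omissions of a library ended this call, with FDR values of 0.071 and 0.075 without wild-type replicate 1 or 2, 0.174 and 0.097 without heterozygous replicate 1 or 2, and 0.14 and 0.285 without homozygous replicate 1 or 2. It was also lost with DESeq2 (adjusted p = 0.0774), in a fit of only these 2 genotypes (FDR = 0.0782) and with edgeR's earlier quasi-likelihood test (FDR = 0.0624). Against the wild type it was at -0.69 (SE 0.28, FDR = 0.215) in homozygotes. Il12rb2, the second IL-12 chain, was at -0.05 (SE 0.37, FDR = 0.97), and shares 40% of its exon bases with Serbp1 on the other strand.

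Il6st, gp130, had normalized counts of 3700.0 and 3864 in the wild type, 3594 and 3146 in heterozygotes and 3022 and 3012 in homozygotes. Its libraries were lowest in homozygotes, and the log2 fold change there was -0.33 (SE 0.10, FDR = 0.0871). Il27ra, the private chain for IL-27, had 4906 and 4702 in the wild type, 5000.4 and 4718 in heterozygotes and 5343 and 4898 in homozygotes, and the genotypes overlapped. Il6ra, which binds IL-6, was at -0.16 (SE 0.10, FDR = 0.439) and Il11ra1, which has a near-identical copy in Il11ra2, at -0.06 (SE 0.15, FDR = 0.891) in homozygotes. None of the 4 tested members of this family was called by edgeR in either carrier genotype against the wild type, and DESeq2 called 0. Of all genes tested, 3.14% were called higher and 2.12% lower in homozygotes, and 1.15% and 0.602% in heterozygotes. Il6st was the 1 member with an unadjusted edgeR p under 0.05, in homozygotes, beside 2213 of the 12117 genes tested.

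Il3ra, the IL-3 receptor alpha chain, had 74 and 111 in the wild type, 177 and 214 in heterozygotes and 181 and 124 in homozygotes as reads, and each carrier library was above both wild-type libraries after scaling. It was at 0.79 (SE 0.21, FDR = 0.0847) in heterozygotes and 0.50 (SE 0.22, FDR = 0.244) in homozygotes, which did not pass. Il17ra, the widely used IL-17 receptor chain, had normalized counts of 5899.6 and 5889 in the wild type, 5069 and 5105 in heterozygotes and 5153 and 5364 in homozygotes. The carrier libraries were below both wild-type libraries, at -0.21 (SE 0.09, FDR = 0.268) in heterozygotes and -0.16 (SE 0.09, FDR = 0.369) in homozygotes. The TGF-β receptor chains Tgfbr1 and Tgfbr2 were at 0.10 (SE 0.12, FDR = 0.733) and 0.06 (SE 0.09, FDR = 0.798) in homozygotes, with intervals of -0.16 to 0.35 and -0.14 to 0.27. Il17rb and Il20rb, both read at low counts, were at -0.32 (SE 0.28, FDR = 0.61) and -0.34 (SE 0.43, FDR = 0.75).

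The genes downstream of the receptors were read from lists of JAK kinases, STAT factors, SOCS feedback inhibitors, IL-1 and IL-17 adaptors and SMAD factors. Jak3, the kinase that binds the common gamma chain, had 1927 and 3327 reads in the wild type, 4581 and 4094 in heterozygotes and 5913 and 4414 in homozygotes. It was higher in homozygotes by 0.78 (SE 0.13, FDR = 0.00493) and was at 0.45 (SE 0.13, FDR = 0.106) in heterozygotes, and was the 1 of 4 JAK genes called (beside 3.14% of all genes tested called higher in homozygotes). Socs3, an inhibitor of gp130 receptors, was higher in homozygotes by 0.79 (SE 0.13, FDR = 0.00485), and Socs5 by 0.92 (SE 0.17, FDR = 0.00909), which was lost without wild-type replicate 2 (FDR = 0.0862) or homozygous replicate 2 (FDR = 0.0602). These were 2 of 8 SOCS genes called higher (beside 3.14%), with 0 of 8 called lower (beside 2.12%). The calls of Jak3 and Socs3 held in each of the 15 alternatives. Of the STAT list, which holds 7 Stat genes and Irf9, 0 of 8 were called by edgeR in homozygotes against the wild type, with Stat3 at 0.38 (SE 0.10, FDR = 0.0625). The SMAD list was tested for Smad2, Smad3, Smad4, Smad7 and the SMAD-binding repressors Ski and Skil, and 0 of 6 were called. Both counts stand beside 3.14% of all genes tested called higher and 2.12% lower. At an unadjusted edgeR p under 0.05 there was 1 gene of the STAT list and 0 of the SMAD list, beside 2213 of the 12117 genes tested. DESeq2 called 1 of 8 and 0 of 6.

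Irak3, an inhibitor of signaling from IL-1 and IL-18 receptors, was higher in both carrier genotypes. It had 73 and 112 reads in the wild type, 239 and 231 in heterozygotes and 248 and 142 in homozygotes. The log2 fold change was 0.85 (SE 0.21, FDR = 0.0404) in homozygotes and 1.06 (SE 0.21, FDR = 0.0279) in heterozygotes. The first was lost without wild-type replicate 1 (FDR = 0.215), wild-type replicate 2 (FDR = 0.127) or homozygous replicate 1 (FDR = 0.326). The second was lost without wild-type replicate 1 (FDR = 0.146), wild-type replicate 2 (FDR = 0.117), heterozygous replicate 1 (FDR = 0.0548) or heterozygous replicate 2 (FDR = 0.0711). It was the 1 of 7 adaptor genes called higher in each comparison (beside 3.14% of all genes tested in homozygotes and 1.15% in heterozygotes), with 0 of 7 lower (beside 2.12% and 0.602%). In heterozygotes against the wild type edgeR called none of the genes on the JAK, STAT, SOCS or SMAD lists (beside 1.15% higher and 0.602% lower). Of them 2, 0, 3 and 1 had an unadjusted p under 0.05, beside 1973 of the 12117 genes tested. DESeq2 called 1 JAK gene and 0 of the others.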

How the data were processed

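RNA-seq read counts per gene were taken as deposited by the authors for 6 libraries of sorted splenic CD4+ T cells, 2 for each genotype. According to the study's methods and the submitters' processing notes, reads were trimmed with Trimmomatic (0.38.1), mapped to mm10 with HISAT2 (2.2.1) and counted on refGene genes with HTSeq (2.0.2). The strand setting of the counting is not given in the sources used here, so reads of overlapping genes on either strand may be mixed. HTSeq's entries for reads not assigned to a gene (42.3 to 49.3% of a library) were left out of library sizes and tests. B cell libraries of the same study were not analysed here.

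The counts were tested with edgeR (4.0.16) in R (4.3.3), with TMM factors of 0.979 to 1.03, a filter by genotype (filterByExpr, minimum count 10, minimum total 15) that kept 12117 of 25239 genes, and 1 quasi-likelihood fit with a coefficient for each genotype. A Benjamini-Hochberg false discovery rate (FDR) was computed across the genes kept, with 0.05 as threshold. The SE of a log2 fold change was its size divided by the square root of the F statistic, and intervals are 95%. Normalized counts are reads scaled to the mean TMM library size, and RPKM used the union of exons in GENCODE M21. A permutation test of 2 libraries against 2 cannot go below p = 0.333 (two-sided) and was not used. The procedure was checked on simulated counts. Promoter windows are from RefSeq (GRCm38.p6).

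The members and the gene lists were chosen with earlier results of these data known. Counts in each library were given for members called in any comparison, for members with an unadjusted p under 0.05 against the wild type, for Il7r and Il2rg, and for the 5 members of highest RPKM. Genes of the pathway lists were named where called against the wild type, and others that are named, such as Il15ra or Stat3, are named beside a count of their family. Alternatives were DESeq2 (1.42.0) on the same genes, its size factors, other filters on low counts, edgeR's likelihood ratio test, fits of only the genotypes compared, a block by replicate number, the omission of each library and, chosen after seeing the data, edgeR's earlier quasi-likelihood test and a block by the number of genes detected. Fits that leave 1 library in a genotype assume that it varies like the other genotypes.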

Additional observations from a re-analysis of the deposited data

How the results depend on the processing

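Of the 33 receptor genes, 5, 3, 6 and 3 were called in homozygotes against the wild type, in heterozygotes against the wild type, in homozygotes against heterozygotes and in heterozygotes against the midpoint, and 637, 212, 201 and 125 of all genes. In the same order, the likelihood ratio test called 1042, 640, 473 and 356 genes, with 9, 6 and 7 receptor genes in the first, second and midpoint comparisons. Without a filter on low counts 542, 486 and 339 genes were called in the last 3 comparisons, with 5 receptor genes in heterozygotes against the wild type and 7 against the midpoint. DESeq2 called 341 genes in heterozygotes against the wild type and 194 against the midpoint, where the share called higher went from 65.6 to 57.8% and from 80 to 63.4%. Without wild-type replicate 1 this share was 36.2% (38 higher and 67 lower) and 55.7%, so the balance of calls in heterozygotes against the wild type turned, and with a block by genes detected it was 49.2% and 54%. The earlier quasi-likelihood test called 3 receptor genes between the carrier genotypes. Leaving out 1 library gave 2 to 6, 0 to 3, 2 to 4 and 2 to 3 receptor genes and 221 to 751, 68 to 250, 62 to 205 and 66 to 117 genes. The receptor counts were 2 in homozygotes without either wild-type library, 0 and 1 in heterozygotes without wild-type replicate 1 or 2, and 2 between the carrier genotypes without heterozygous replicate 2, homozygous replicate 1 or homozygous replicate 2. The cause was not tested, beyond there being fewer libraries in these fits. The log2 fold change of Il2rg in heterozygotes, 0.07 with no call, ran from -0.0191 without heterozygous replicate 1 to 0.154.

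The replicate numbers are not given as a shared animal, litter or day. The correlations of the differences between replicate 1 and 2 across genes were -0.167 (wild type and heterozygotes), -0.216 (wild type and homozygotes) and 0.238 (the carrier genotypes). These values cannot show whether samples of 1 number shared a batch. In heterozygotes and homozygotes replicate 1 had fewer genes detected (15079 and 14803) than replicate 2 (18147 and 17571). In the wild type it had more (16873 against 15888). With a replicate block 3, 2, 4 and 3 receptor genes and 514, 170, 168 and 120 genes were called. It ended the calls of Crlf2 (FDR = 0.0517), Ifngr2 (FDR = 0.0707), Irak3 (FDR = 0.0645) and Acvr1b (FDR = 0.0794) in homozygotes, Il7r (FDR = 0.0636) in heterozygotes, and Il12rb1 (FDR = 0.0709) and Il9r (FDR = 0.0654) between the carrier genotypes. A block by genes detected, chosen after seeing the data, called 10, 9, 7 and 8 receptor genes and 1756, 1422, 877 and 737 genes. Il1r1 and Il9r were not kept by every filter and have no value there. With 0 to 69 reads in a library, Il1r1, Il9r and Il18rap are limited by depth.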

Other observations

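Receptors of the same families that the naming rule does not hold were read from a list of 12 genes, of which 7 were tested and 2 were called higher in homozygotes than in the wild type, beside 3.14% of all genes tested. Csf2ra, the alpha chain of the GM-CSF receptor, had 61 and 136 reads in the wild type, 206 and 211 in heterozygotes and 303 and 189 in homozygotes. Its log2 fold change was 1.11 (SE 0.24, edgeR FDR = 0.0195) in homozygotes, lost without wild-type replicate 1 (FDR = 0.128) or homozygous replicate 1 (FDR = 0.137), and 0.80 (SE 0.24, FDR = 0.126) in heterozygotes. Csf2rb, the beta chain that GM-CSF, IL-3 and IL-5 receptors share, had 3 to 8 reads in each library. Acvr1b, a receptor of the activin branch of the TGF-β family, was at 0.39 (SE 0.10, FDR = 0.0452) in homozygotes, lost without any 1 of the wild-type or homozygous libraries (FDR = 0.125 to 0.247).

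Among 15 cytokine ligand genes 3 were tested, and 0 were called by edgeR or by DESeq2 against the wild type. Of all genes tested, edgeR called 3.14% higher and 2.12% lower in homozygotes, and 1.15% and 0.602% in heterozygotes. Tgfb1 had 1614 and 2082 reads in the wild type, 2734 and 2190 in heterozygotes and 3019 and 2387 in homozygotes. Its log2 fold change was 0.33 (SE 0.10, FDR = 0.0824) in homozygotes. It was the 1 ligand with an unadjusted edgeR p under 0.05 there, beside 2213 of the 12117 genes tested. Il2 had 0 to 8 reads and Ifng 0 to 13 reads in a library.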
